A study of Mus musculus with 2 samples.

Results

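Hepatic expression of the urea cycle and of neighbouring periportal nitrogen enzymes was compared between mice given acetaminophen (APAP) with vehicle and mice given APAP with AZD7986. The group holds 10 genes chosen by name, namely Cps1, Otc, Ass1, Asl, Arg1, Nags, Gls2, Hal, Sds and Sdsl, out of 24377 genes in the table. All 10 were found, all 10 reached 20 counts over both pools together, and 7 reached 1000. AZD7986, also called brensocatib, inhibits cathepsin C (CtsC), the protease that activates the serine proteases of neutrophils. Male C57BL/6J mice (C57BL/6 in the labels) aged 9 to 11 weeks were fasted for 10 h and received 300 mg/kg APAP by intraperitoneal injection, and livers were taken 30 h later. The AZD7986 group was dosed by mouth with 5 mg/kg at −12 h, 0 h, 12 h and 24 h relative to APAP, while the control group received 4 doses of vehicle. Both groups therefore carry the APAP injury, and no liver without APAP enters the comparison. RNA of 8 mice per group was pooled, and each pool gave 1 library, so no replicate, no test and no p-value exists. The treatment text in the labels is identical for the pools, so their groups were read from the titles.

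The urea cycle converts ammonia, which is toxic, into urea, and it runs mainly in hepatocytes near the portal vein, where blood enters the liver lobule. Its opening steps lie in the mitochondria and its later steps in the cytosol, with citrulline and ornithine carried across the inner membrane. Hepatocytes around the central vein hold glutamine synthetase, which traps ammonia that has escaped the periportal cells. APAP is activated by cytochrome P450 enzymes of the perivenous cells, and its necrosis is typically centred there. Glutaminase, histidine ammonia lyase and serine dehydratase are periportal enzymes that free ammonia from amino acids.

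Depth was 7657855 counts in the vehicle library, spread over 22411 genes, and 6700838 counts in the AZD7986 library, spread over 21333. Mitochondrial transcripts hold 9.17% and 7.74% of these counts. Each transcript is counted by its 3′ end, and duplicates were removed by molecular identifiers, so a gene's CPM (its count scaled to a common library total) can be compared between genes without a correction for length. A ratio sets AZD7986 over vehicle, each count first divided by its median-of-ratios size factor (0.910 and 1.10). The exact 95% interval in brackets follows from how the summed count splits between the pools and covers counting error only, not the spread between mice. The hepatocyte marker genes Alb, Ttr, Apoa1, Serpina1a and Trf were abundant in both pools, from 3176 CPM for Serpina1a to 34874 CPM for Alb with vehicle. In such bulk RNA, fewer cells of a type and less RNA per cell cannot be told apart.

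The cytosolic pair that makes arginine stood apart from the other enzymes. Ass1 and Asl had ratios of 1.82 [1.75, 1.88] and 1.92 [1.81, 2.04] and were the only members at 1.5 or above. Cps1, Otc, Arg1, Nags, Gls2 and Hal had ratios from 1.14 to 1.41 with intervals above 1, although raw counts, which carry the depth of each library, put Cps1 and Hal slightly below 1. Sdsl was the only member whose interval lay below 1, and the interval of Sds included 1, with a log2 ratio of 0.18 that was −0.096 with raw counts. Thus 2 of 10 members were at 1.5 or more, against 8.98% of the 13523 genes with 20 or more counts over both pools. No member was at 2 or more (2.22% of these genes), at 1/1.5 or less (11.8%) or at 0.5 or less (3.73%). The interval lay above 1 for 8 members, against 17.9% of genes, and below 1 for 1 member, against 15.1%.

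Depth enters these shares, because a deeply counted gene has a narrow interval. Among the 1830 genes that reached 1000 counts over both pools, the interval lay above 1 for 54.1% and below 1 for 18.9%. All 7 deeply counted members were above 1 and none below. In the same depth class 9.45% of genes were at 1.5 or more and 1.91% at 1/1.5 or less, and the 7 members gave 2 and 0. The median log2 ratio of the 10 members was 0.32 (0.046 with raw counts, which shift every log2 ratio by −0.27), against 0.16 for the deeply counted genes and −0.02 for all tested genes. An interval above 1 was thus found for most abundant liver transcripts, and the members' share is read against that. Ass1 stood at the 98.0 percentile and Asl at the 98.6 percentile of the ratios in that depth class, while Cps1 stood at the 53.5 percentile.

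**Figure D1:**
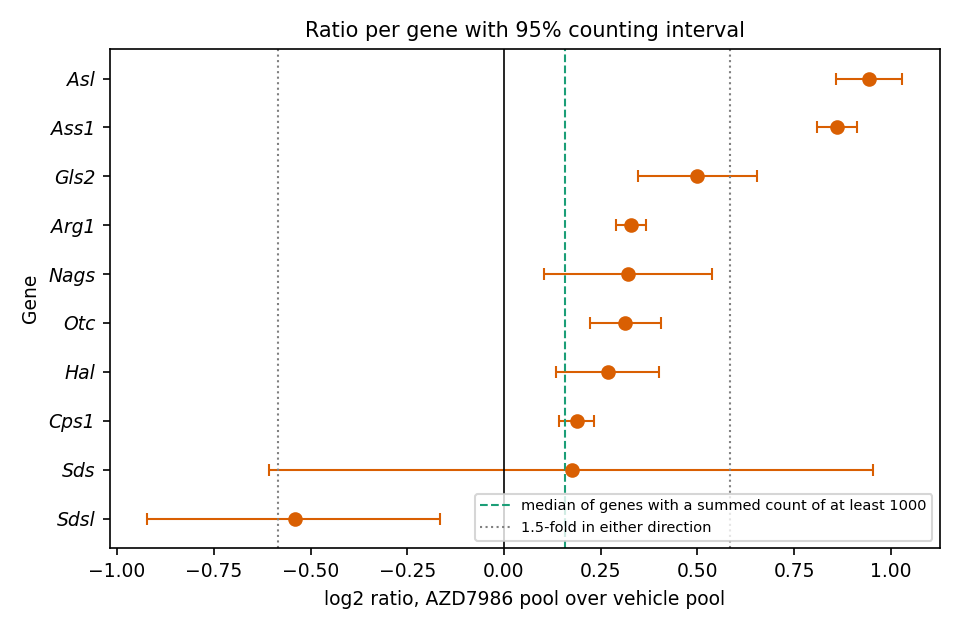
Log2 ratio of the AZD7986 pool over the vehicle pool (x axis) for each of the 10 genes (y axis), as points with the exact 95% counting interval. The solid line marks 0, the dashed line the median of genes reaching 1000 counts (0.16) and the dotted lines 1.5-fold in either direction, and only Asl (0.94) and Ass1 (0.86) lie wholly past the upper dotted line.

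Promoter sequence is shown for Ass1, which had a large ratio, and for Otc and Hal, which had small ones, so that the regions can be set beside each other. RefSeq promoters matched 4 members, Ass1, Otc, Hal and Nags. Each sequence gives the 250 bases before the RefSeq start of the gene on the plus strand of GRCm38.p6. Capitals mark the GC box GGGCGG in Ass1, and in Hal, from left to right, the C/EBP core TTGCNNAA, the CCAAT box and a TATA box TATAAA read on the minus strand. In Otc no letters are in capitals because none of the searched motifs was found. The regions are chr2:31470020-31470269 for Ass1, chrX:10252055-10252304 for Otc and chr10:93488518-93488767 for Hal.
Ass1: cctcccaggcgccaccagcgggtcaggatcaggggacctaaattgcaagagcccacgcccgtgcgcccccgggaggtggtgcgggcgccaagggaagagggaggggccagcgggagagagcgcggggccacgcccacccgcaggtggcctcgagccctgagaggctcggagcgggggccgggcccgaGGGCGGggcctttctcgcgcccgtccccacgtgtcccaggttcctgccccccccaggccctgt
Otc: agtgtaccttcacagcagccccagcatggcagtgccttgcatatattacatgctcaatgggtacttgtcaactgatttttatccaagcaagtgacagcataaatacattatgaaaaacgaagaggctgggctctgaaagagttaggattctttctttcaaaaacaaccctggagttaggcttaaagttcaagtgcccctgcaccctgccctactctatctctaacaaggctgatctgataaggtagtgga
Hal: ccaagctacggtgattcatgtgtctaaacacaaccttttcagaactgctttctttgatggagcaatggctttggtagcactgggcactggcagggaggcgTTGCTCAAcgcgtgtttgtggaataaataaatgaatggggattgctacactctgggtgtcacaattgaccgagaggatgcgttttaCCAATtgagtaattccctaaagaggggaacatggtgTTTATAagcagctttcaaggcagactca

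The Ass1 sequence had a GC content of 75.6% with 23 CG dinucleotides, and that of Otc 43.6% with 1. Hal had 45.6% and 6, and Nags 55.6% and 11. Both strands were searched, with overlapping matches allowed. The motifs were the TATA box TATAAA, the CCAAT box, the C/EBP core TTGCNNAA and the cAMP response core TGACG. Also searched were the forkhead motif TGTTTNC, the HNF4 motif CAAAGTCCA, the glucocorticoid receptor motif TGTTCT and the GC box GGGCGG. The GC box began at position −63 from the RefSeq start in Ass1, and at −132 and −41 in Nags. The GENCODE start of Ass1, chr2:31470207, lies inside the printed region, which ends at 31470269. By that annotation the Ass1 box lies at the gene start, not before it, and the bases after it are within the gene. For Otc, Hal and Nags the region ends just before the GENCODE start. It is also found in 32.7% of the 32851 RefSeq promoters of this length. Of all promoters, 12.4% held TATAAA, 33.8% CCAAT and 9.56% TTGCNNAA, the 3 motifs found in Hal. The others occurred in 17.8% (TGACG), 17.8% (TGTTTNC), 0.384% (CAAAGTCCA) and 16.1% (TGTTCT) and were not among the letters of the 4 members. These matches describe the letters only.

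Nags, Cps1 and Otc hold the mitochondrial entry into the cycle. Nags makes N-acetylglutamate, the obligate activator of Cps1. It was the least counted of these 3, at 344 counts (44.9 CPM) in the vehicle pool and 356 counts (53.1 CPM) in the AZD7986 pool, a ratio of 1.25 [1.07, 1.45]. The gene lies at chr11:102145513-102149477, and an antisense gene, Gm11586, overlaps it over 698 bases and is not analysed here.

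Cps1 joins ammonia and bicarbonate to carbamoyl phosphate, the committed step of the cycle. It had 8092 counts (1057 CPM) with vehicle and 7639 counts (1140 CPM) with AZD7986. The ratio was 1.14 [1.10, 1.18], close to the median of 1.12 for deeply counted genes. Cps1 lies at chr1:67123026-67231259. Otc, at chrX:10252305-10321024, transfers the carbamoyl group to ornithine and yields citrulline. Its 1902 counts (248 CPM) and 1958 counts (292 CPM) gave a ratio of 1.24 [1.17, 1.32]. The 3 entry genes together had 10338 counts with vehicle and 9953 with AZD7986, a ratio of 1.16 [1.13, 1.19].

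Ass1 and Asl carry citrulline to arginine in the cytosol. Ass1, argininosuccinate synthase, joins citrulline to aspartate and so brings in the other nitrogen of urea. It was counted 4832 times (631 CPM) with vehicle and 7270 times (1085 CPM) with AZD7986, a log2 ratio of 0.86. The gene lies at chr2:31470207-31520672. Asl, argininosuccinate lyase, splits the product into arginine and fumarate. It was counted 1810 times (236 CPM) with vehicle and 2884 times (430 CPM) with AZD7986, a log2 ratio of 0.94. Asl lies at chr5:130011258-130029247 on the minus strand.

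The pair had near-equal ratios although the genes are on different chromosomes. Ass1 counts per Asl count were 2.67 with vehicle and 2.52 with AZD7986, a quotient of 0.944 [0.881, 1.01]. Together they held 0.0867% of the vehicle library and 0.152% of the AZD7986 library. Their summed counts, 6642 and 10154, gave a ratio of 1.85 [1.79, 1.90] after division by the size factors.

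Arg1, arginase, releases urea and returns ornithine to the mitochondria, and it was the most counted member in both pools. It had 10909 counts (1425 CPM) with vehicle and 11351 counts (1694 CPM) with AZD7986, a ratio of 1.26 [1.22, 1.29]. Arg1 lies at chr10:24915221-24927484 on the minus strand. Macrophages can also express Arg1, and bulk counts do not separate the sources.

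Comparing members within a library removes the scaling between libraries. Per Cps1 count, Ass1 had 0.597 counts with vehicle and 0.952 with AZD7986, a quotient of 1.59 [1.52, 1.67]. The same quotient was 1.69 [1.58, 1.81] for Asl, 1.10 [1.06, 1.15] for Arg1 and 1.09 [1.02, 1.17] for Otc. For Nags it was 1.10 [0.939, 1.28], which includes 1. Set against Arg1, the quotients were 1.45 [1.38, 1.51] for Ass1 and 1.53 [1.44, 1.63] for Asl. Ass1 and Asl thus exceeded Cps1 and Arg1 by more than counting error.

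The 5 enzymes that turn the cycle, Cps1, Otc, Ass1, Asl and Arg1, held 27545 counts of the vehicle library and 31102 counts of the AZD7986 library. Their summed ratio was 1.36 [1.34, 1.39]. Within that sum, the share of Ass1 was 17.5% with vehicle and 23.4% with AZD7986, and that of Asl 6.57% and 9.27%. The share of Cps1 was 29.4% and 24.6%, that of Arg1 39.6% and 36.5%, and that of Otc 6.91% and 6.30%. The makeup of the cycle transcripts differed between the pools, with the shares of Ass1 and Asl higher in the AZD7986 pool and those of the other 3 lower.

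**Figure D2:**
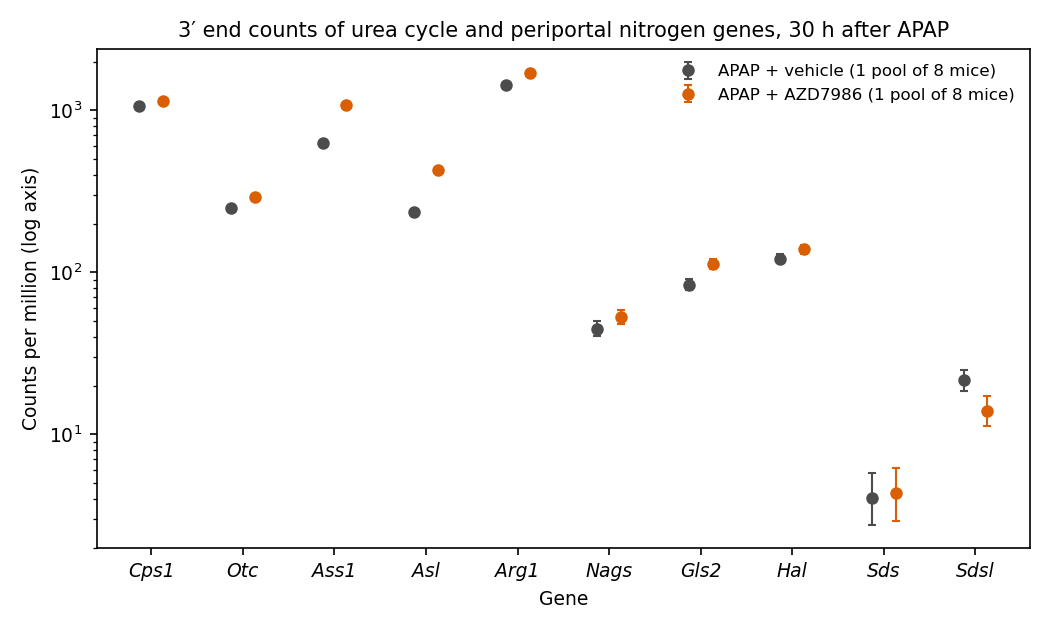
CPM (y axis, log scale) of the 10 genes (x axis) in the vehicle pool and the AZD7986 pool, 1 library each, as points with exact 95% counting intervals. Arg1 is the highest in both pools (1425 and 1694), Asl lies near Otc with vehicle (236 and 248) and above it with AZD7986 (430 and 292), and Sds is the lowest in both (4.05 and 4.33).

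The order of the levels by CPM in the vehicle pool was Arg1, Cps1, Ass1, Otc, Asl, Hal, Gls2, Nags, Sdsl and Sds. Only the intervals of Otc and Asl overlapped between neighbours in that order. In the AZD7986 pool Asl stood above Otc, and no neighbouring intervals overlapped. All other places were the same. Ass1 had come near Cps1 there, at 1085 against 1140 CPM.

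The periportal enzymes that free ammonia from amino acids did not share 1 direction. Gls2, the liver-type glutaminase, releases ammonia from glutamine within the mitochondria. It had 641 counts (83.7 CPM) with vehicle and 751 counts (112 CPM) with AZD7986. The ratio was 1.41 [1.27, 1.57], and per Cps1 count the quotient was 1.24 [1.11, 1.39]. The gene, at chr10:128194457-128210004, overlaps Spryd4 on the opposite strand over 97 bases, and Spryd4 had 139 and 127 counts.

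Hal deaminates histidine to urocanate and ammonia. It had 929 counts (121 CPM) with vehicle and 927 counts (138 CPM) with AZD7986, a ratio of 1.20 [1.10, 1.32]. Hal lies at chr10:93488768-93519304. The genes that follow it in histidine breakdown had ratios of 1.14 [1.05, 1.25] for Uroc1 (1049 and 995 counts), 1.46 [1.33, 1.61] for Amdhd1 (742 and 899 counts) and 1.35 [1.25, 1.46] for Ftcd (1272 and 1424 counts). Uroc1 is urocanate hydratase, Amdhd1 the imidazolonepropionase and Ftcd a folate enzyme that takes up the formimino group. Aldh1l1, a folate dehydrogenase, was at 1.39 [1.31, 1.48]. The intervals of these 4 genes were all above 1.

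Sds, serine dehydratase, turns serine into pyruvate and ammonia and is a gluconeogenic enzyme known for its periportal place. It was the least counted member, at 31 counts (4.05 CPM) with vehicle and 29 counts (4.33 CPM) with AZD7986. Its ratio of 1.13 [0.656, 1.94] did not separate the pools at this depth. Sdsl, a paralog whose human form has serine dehydratase activity, had 165 counts (21.5 CPM) with vehicle and 94 counts (14.0 CPM) with AZD7986. Its ratio was 0.688 [0.528, 0.891], with a log2 value of −0.54. The genes lie next to each other on chromosome 5, Sdsl at chr5:120458186-120472810 on the minus strand and Sds at chr5:120476526-120483932 on the plus strand. They point away from each other with 3715 bases between them. Sdsl counts per Sds count were 5.32 with vehicle and 3.24 with AZD7986, a quotient of 0.609 [0.333, 1.12] that includes 1. So the neighbours were not shown to differ from each other. Srr, serine racemase, which can also dehydrate serine, had 302 and 297 counts and a ratio of 1.19 [1.01, 1.40].

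Transcripts that share 3′ sequence can exchange reads. Windows of 50 bases in the last 500 bases of each coding transcript were compared with all other annotated transcripts. Ass1 shared 130 of 451 windows with Gm5424, a processed pseudogene at chr10:62071123-62072362, and these lay 254 to 483 bases from the 3′ end. Gm5424 had 379 counts with vehicle and 679 with AZD7986, a ratio of 2.16 [1.90, 2.46], so the entries of gene and copy were both higher in the AZD7986 pool. Ass1 and Gm5424 summed gave 5211 and 7949 counts and a ratio of 1.84 [1.78, 1.91]. Assigning the copy's reads to Ass1 therefore left its ratio nearly where it was.

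Sds shared 312 of 902 windows with Plbd2, which runs on the opposite strand and overlaps the gene over 651 bases. The coding transcripts Sds-201 and Sds-204 each held all 312, between the 3′ end and 361 bases before it, while Sds-202 held 0. Plbd2 had 342 counts with vehicle and 216 with AZD7986, a ratio of 0.762 [0.640, 0.906]. Gm15690, antisense to Sds over 1062 bases, had 12 and 5 counts. The strand setting of the counting is unknown from the labels and methods, so the low counts of Sds are uncertain. The other 8 members shared no window.

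**Figure D3:**
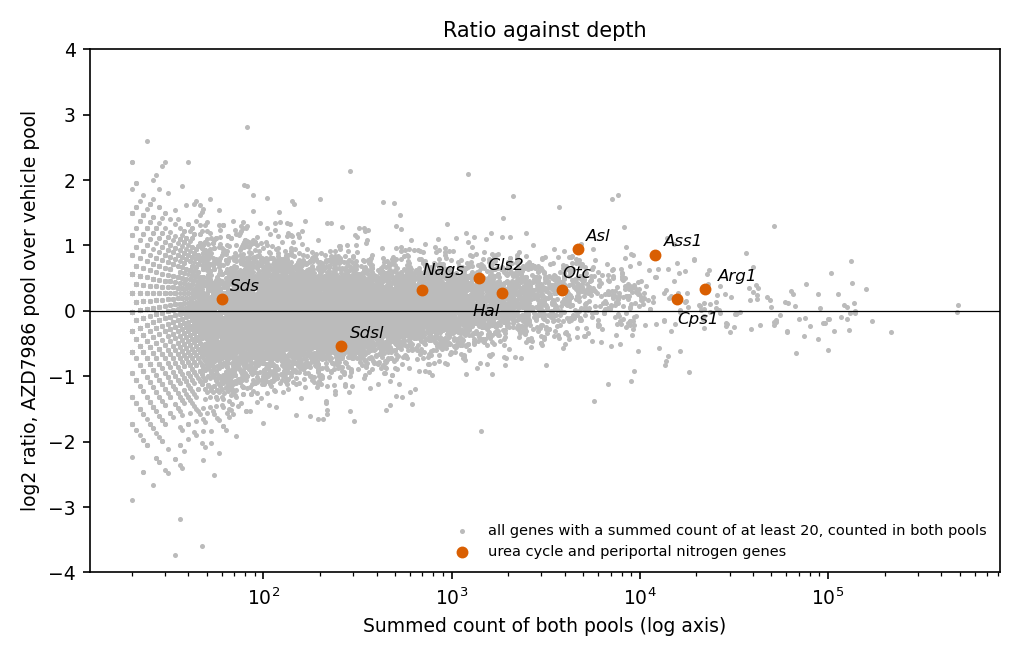
Log2 ratio of the AZD7986 pool over the vehicle pool (y axis) against the summed count of both pools (x axis, log scale). Grey points are genes with 20 or more counts and a count in both pools, 6 of which lie outside the plotted range, and orange points are the 10 genes, with Ass1 and Asl (0.86 and 0.94) at the upper edge of genes of like depth.

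Most accessory genes of the cycle had ratios nearer 1 than Ass1 and Asl. Of the urea cycle accessories (carriers, bicarbonate and aspartate supply), 17 were tested, with a median log2 ratio of 0.13 (−0.14 with raw counts), 9 intervals above 1 and 2 below. Slc25a15, the ornithine-citrulline carrier, had 1697 and 1622 counts and a ratio of 1.15 [1.08, 1.24]. Slc25a13, the aspartate-glutamate carrier that supplies Ass1, was at 1.18 [1.05, 1.32]. Car5a, the mitochondrial carbonic anhydrase that feeds bicarbonate to Cps1, was the only one of the 17 at 1.5 or more, with 95 and 127 counts and 1.61 [1.23, 2.13]. Glud1, glutamate dehydrogenase, had 5244 and 3908 counts and a ratio of 0.899 [0.863, 0.938]. Mdh1, the cytosolic malate dehydrogenase, was at 1.31 [1.24, 1.38].

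Perivenous genes of ammonia and glutamine handling were split. Of 10 tested, 4 were at 1.5 or more and 2 at 1/1.5 or less, with a median log2 ratio of 0.34. Glul, the glutamine synthetase, had 270 counts with vehicle and 453 with AZD7986, a ratio of 2.02 [1.74, 2.36]. Oat, ornithine aminotransferase, a perivenous enzyme that diverts ornithine from the cycle, had 323 and 500 counts and 1.87 [1.62, 2.16]. Slc1a2, a glutamate transporter of perivenous hepatocytes, had 12 and 70 counts and 7.04 [3.79, 14.3]. Slc38a3, a glutamine transporter, had 3799 and 5038 counts and a log2 ratio of 0.68. Ratios as large as those of Ass1 and Asl were thus also found among perivenous nitrogen genes.

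Genes for other fates of arginine and ornithine, and pyrimidine genes, had medians near 0. Of 16 genes for the fates of arginine and ornithine, 4 intervals were above 1 and 4 below, with a median log2 ratio of −0.02. Among them Gamt, which completes creatine synthesis, was at 1.53 [1.41, 1.66], and Gatm, which begins it, at 0.649 [0.487, 0.858]. Odc1, the ornithine decarboxylase of polyamine synthesis, had 556 and 405 counts and a ratio of 0.879 with an interval that included 1, and Oaz1, its antizyme, 1.01 [0.960, 1.07]. Amd1, which makes the aminopropyl donor of polyamines, was at 0.648 [0.531, 0.787]. Over 10 genes of the list from carbamoyl phosphate to pyrimidines the median was 0.08 (−0.19 with raw counts), with 4 intervals above 1 and 2 below. That list also holds pyrimidine breakdown genes, so its median does not describe the use of carbamoyl phosphate alone. Cad, which makes carbamoyl phosphate in the cytosol for pyrimidines, had 88 and 45 counts and 0.617 [0.421, 0.894], below 1 where Cps1 was above it. Upp1, a uridine phosphorylase, was at 0.534 [0.312, 0.888], its liver-rich paralog Upp2 at 1.77 [1.66, 1.89], and Upb1 of pyrimidine breakdown at 1.37 [1.29, 1.47].

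Amino acid breakdown, which feeds nitrogen to the cycle, had medians from 0.18 to 0.45, against −0.02 for all tested genes and 0.16 for deeply counted ones. The median log2 ratio was 0.45 over 16 aromatic genes, with 12 intervals above 1 and 2 below. It was 0.33 over 15 sulfur amino acid genes (11 and 0), 0.23 over 24 branched-chain, lysine and proline genes (13 and 0), 0.27 over 7 histidine genes (5 and 0, Hal included) and 0.18 over 19 serine, threonine and glycine genes (10 and 2, Sds and Sdsl included). The serine list also holds genes of serine synthesis, and the sulfur list genes that remake methionine, so their medians do not describe breakdown alone. The serine and branched-chain medians, and their shares of intervals above 1, were near those of deeply counted genes (0.16 and 54.1%). All 5 medians lay on the same side of 0 as that of the 10 members, but with raw counts those of the branched-chain, histidine and serine lists were below 0.

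Single genes reached the size of Ass1 and Asl. Gnmt, the abundant glycine methyltransferase, had 4969 and 8900 counts and a log2 ratio of 1.11, Mpst 0.92, Bhmt 0.80 and Cdo1 0.58. Afmid was at 1.06 and Hpd, of tyrosine breakdown, at 0.86 with 3661 and 5500 counts, while Qdpr was at 0.78. Tdo2 and Tat, the entry enzymes for tryptophan and tyrosine, were at 0.06 and −0.20. Prodh was at 0.93, Prodh2 at 0.65, Gcdh at 0.64 and Aldh7a1 at 0.22. Pipox (0.81), Sardh (0.79), Gcat (0.68) and Agxt (0.65) of glycine metabolism were above 1.5-fold, and Grhpr was at 0.14.

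Other periportal hepatocyte genes had a median log2 ratio of 0.20 over 21 genes (−0.069 with raw counts), with 13 intervals above 1 and 6 below. Of these, 2 were at 1.5 or more. Uox, urate oxidase, was at 0.78. Cdh1, E-cadherin, was at −0.60, Alb at −0.02 and Serpina1c at 0.26. The regulators of urea cycle genes had a median of −0.07 over 21 genes, with 3 intervals above 1 and 3 below. Among them Cebpa was at 0.34 with 1429 and 1502 counts, Cebpb at −0.66 with 1072 and 561 counts, Hnf4a at −0.09 and Trp53 at −1.23 with 65 and 23 counts.

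Fasting and glucagon responsive genes, a program that also drives urea cycle genes, had a median log2 ratio of −0.15 over 12 genes, with 3 intervals above 1 and 4 below. Pck1, the entry enzyme of gluconeogenesis, had 8087 counts with vehicle and 4530 with AZD7986, a log2 ratio of −0.56. Sik1, a cAMP-induced kinase, was at −0.91 with 102 and 45 counts. The ratios of Ass1 and Asl therefore came with Pck1 and Sik1 ratios below 1.

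**Figure D4:**
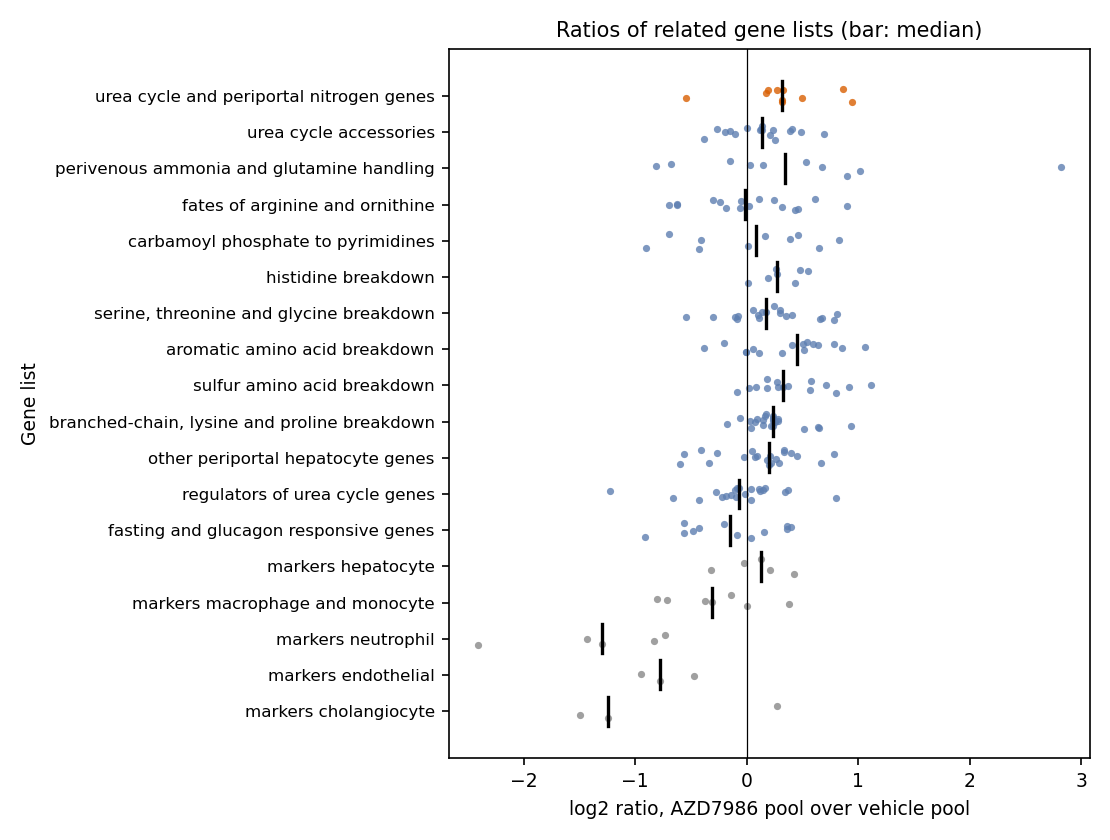
Log2 ratio of the AZD7986 pool over the vehicle pool (x axis) for the 10 genes and 17 related gene and marker lists (y axis), 1 point per gene with 20 or more counts over both pools, and a black bar at each median. The median of the 10 genes is 0.32, and the neutrophil, endothelial and cholangiocyte markers have medians of −1.30, −0.78 and −1.24.

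Most markers of other liver cell types were lower in the AZD7986 pool. The 5 neutrophil markers summed to 936 counts with vehicle and 303 with AZD7986, and all 5 were at 1/1.5 or less. The interval lay below 1 for 3 of them and included 1 for Retnlg (36 and 18 counts) and Mmp8 (15 and 7 counts). S100a8 had 472 and 145 counts, S100a9 381 and 128, and Csf3r 32 and 5, with a median log2 ratio of −1.30 over the list. The 3 endothelial markers summed to 728 and 352 counts, with a median of −0.78, and Cdh5 and Pecam1 were at −0.94 and −0.78. The 3 cholangiocyte markers summed to 242 and 93 counts, with Sox9 at −1.24, Krt19 at 17 and 5 counts and Krt7 at 14 and 14. Of these, only Sox9 had an interval below 1.

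The 8 macrophage and monocyte markers summed to 3561 and 2485 counts, with a median log2 ratio of −0.31 over the 7 tested. Lyz2 (−0.31), Chil3 (−0.80) and Ccr2 (−0.72) were lower, Clec4f of Kupffer cells was at 0.38, and Retnla was listed at 0 counts with vehicle and 1 with AZD7986. Arg1, which macrophages can also express, had a log2 ratio of 0.33, and the part of macrophages in it was not tested. The 5 hepatocyte markers had a median of 0.13 (−0.15 with raw counts), from −0.32 for Trf to 0.42 for Ttr. So the ratios of the urea cycle genes came together with fewer counts of non-hepatocyte markers, and the part of that shift in the members' ratios was not tested. The quotients of Ass1 and Asl per Cps1 or Arg1 count do not depend on the library total, but the part of cell makeup in them was not tested either.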

How the data were processed

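Liver RNA of 2 pools was measured by massive analysis of cDNA ends (MACE), a 3′ mRNA sequencing method with molecular identifiers. The authors removed duplicates, trimmed the reads, mapped them to mm10 and deposited raw counts per gene from HTSeq. Values that the authors deposited under a TPM heading are CPM: gene length does not enter them, as checked on the counts. Another deposited signal is each count divided by a size factor per library. The aligner, annotation, strand setting and tool versions were not given in the sources used here. The table also held 6 columns of other samples' values, which were not used.

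Size factors came from DESeq2 1.42.0 (R 4.3.3). Ratios and exact Clopper-Pearson 95% intervals were calculated with scipy 1.17.1, numpy 2.4.6 and pandas 2.3.3 under Python 3.11.15, and figures drawn with matplotlib 3.10.9. With 1 library per group, no test was run. The interval was tried on simulated counts that held counting error only, so that trial says nothing of the spread between mice or libraries. Genes needed a summed count of at least 20 for a list median. Entries without a gene symbol held 3.70% and 3.71% of counts and were kept. Coordinates are from GENCODE M21 (GRCm38), which held 23210 of the identifiers, and promoters are from RefSeq (GRCm38.p6).

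The members and lists were chosen with earlier results of these data known. Named were all members, the 2 most counted genes of each list, up to 3 with the largest ratio past 1.5-fold whose interval excluded 1, and partner enzymes, of which 2 genes are not reported here. Gm5424, Plbd2, Gm15690, Spryd4, Gm11586 and the GC box were chosen after the values or sequences were seen. Arg2, Pycr3, Slc38a5, Tdh and Bckdha are not analysed here. Alternatives were other scalings, a stricter interval, 0.5 added to each scaled count, other minimum counts and, added after seeing the data, Ass1 summed with its copy.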

Additional observations from a re-analysis of the deposited data

How the results depend on the processing

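No paired analysis was possible because each group has 1 library, and no library could be left out. Relative to the values given, log2 ratios shifted by 0.0017 with TMM (edgeR 4.0.16), −0.014 with size factors from genes that reached 100 counts, −0.079 by library total, −0.10 by library total without mitochondrial transcripts and −0.27 with raw counts. Raw counts carry the difference in depth between the libraries. Under raw counts the log2 ratios of Cps1 (−0.083), Hal (−0.0031) and Sds (−0.096) changed sign. So did the medians of urea cycle accessories (−0.14), carbamoyl phosphate to pyrimidines (−0.19), histidine breakdown (−0.0031), serine, threonine and glycine breakdown (−0.096), branched-chain, lysine and proline breakdown (−0.039), other periportal genes (−0.069) and hepatocyte markers (−0.15). The median of the 10 members was then 0.046, and the interval lay above 1 for 4 members and below 1 for 2. The number of members at 1/1.5 or less was 1 (Sdsl) by library total, by library total without mitochondrial transcripts and with raw counts. With the stricter interval, 7 members lay above 1 and 0 below. For the results computed with them, TMM, 0.5 added to each scaled count and other minimum counts changed no direction or count among the members, and Ass1 summed with its copy had a log2 ratio of 0.88. Depth limits Sds most, at 31 and 29 counts.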
